A study of Mus musculus with 4 samples.

Results

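The genes described here are regulators of the Th1 lineage of helper T cells and its signature cytokine. They are Ifng, which encodes interferon gamma (IFN-γ), the T-box factors Tbx21 (T-bet) and Eomes, the IL-12 receptor chain Il12rb2, the signal transducer Stat4, and the transcription factors Hlx and Runx3. They were chosen by name, as all probe sets annotated to these 7 genes by a current or older symbol, among 18193 genes with at least 1 probe set. The 7 genes had 9 probe sets, with 2 each for Eomes and Runx3, and of these the brightest on average stood for the gene.

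RNA was measured in effector Th1 and Th17 cells of the mouse, cultured for 6 days from splenic CD4 T cells and then sorted on CD30, the surface receptor that Tnfrsf8 encodes and that belongs to the TNF receptor family. The 4 populations were CD30high Th1, CD30low Th1, CD30high Th17 and CD30low Th17 cells, with 1 array each. Th1 cultures held IL-2 (30 U/ml), IL-12 (100 U/ml) and an antibody to IL-4 (1 µg/ml). Th17 cultures held IL-6, IL-1β and IL-23 (10 ng/ml each) and antibodies to IL-4 and to IFN-γ (10 µg/ml each), so the cytokine of the other lineage was neutralised in them. By the methods, the T cells carried a transgenic receptor for an ovalbumin peptide and were stimulated with that peptide on irradiated splenocytes depleted of T cells, and only naive cells with high CD62L were used. The labels instead put CD62Lhi starting cells behind the CD30high arrays and CD62Llow starting cells behind the CD30low arrays, so that by the labels gate and starting cells cannot be told apart.

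No group had a replicate, so differences between arrays have no replicate error and carry no p-value. A call of higher or lower required a difference of 2-fold or more and a signal of 300 or more on the brighter of the arrays compared. Signals under 100, close to background, were raised to 100 for ratios, which turns a fold over such a signal into a lower bound. Technical precision could be judged only from genes with at least 2 probe sets that reached 300 on all 4 arrays, using the 2 brightest. It therefore does not cover dimmer signals, nor error that the probe sets of an array share. Over 2462 genes the SD of a log2 ratio per probe set was 0.21 for CD30high over CD30low in Th1 cells and 0.17 in Th17 cells, and it was 0.27 for Th1 over Th17 among CD30high cells and 0.26 among CD30low cells. Tnfrsf8 itself was dim and reached 100 in CD30high Th17 cells only, with signals of 51.1 in CD30high and 13.3 in CD30low Th1 cells and of 132 in CD30high and 34.9 in CD30low Th17 cells. All 7 T cell markers reached 100 on every array, and Il17a, which names the Th17 lineage, had 14443 in CD30high and 1398 in CD30low Th17 cells, against 49.4 in CD30high and 37.7 in CD30low Th1 cells. The Th1 and Th17 cells also differed in sex-linked transcripts, such as the Y-linked Eif2s3y with 1640.0 in CD30high and 1784 in CD30low Th1 cells, against 9.39 in CD30high and 1.41 in CD30low Th17 cells. Xist, expressed from the inactive X chromosome, was bright on all 4 arrays, with 16222 in CD30high and 14620.4 in CD30low Th1 cells, against 22613 in CD30high and 22350.0 in CD30low Th17 cells. The lineage and the source of the cells can therefore not be told apart. As these are bulk samples, fewer cells of a type and less RNA per cell cannot be told apart either.

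In Th1 differentiation, IL-12 binds a receptor of the chains IL-12Rβ1 and IL-12Rβ2 and activates STAT4, while IFN-γ acts through a receptor of its own. T-bet is the master factor of the lineage and drives Ifng and Il12rb2. HLX and RUNX3 act together with T-bet, and RUNX3 also takes part in silencing Il4. Eomesodermin is the second T-box factor of lymphocytes and is best known from CD8 T cells and natural killer cells.

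To ask how far this program separated the lineages, the Th1 arrays were compared with the Th17 arrays of the same CD30 gate. Ifng, Tbx21 and Stat4 were higher in Th1 than in Th17 cells in both gates. Il12rb2, Runx3 and Eomes were not past the rule in either gate, and Hlx was lower in Th1 than in Th17 cells among CD30high cells. Among CD30high cells 3 members were called higher and 1 lower, and 6 of the 7 reached a signal of 300 on either array. Of the 7979 genes that reached 300 on either of these arrays, 11.8% were called, 6.86% higher and 4.98% lower. Among CD30low cells 3 were called higher and 0 lower, and 4 of the 7 reached 300. Of the 7857 genes that reached 300 there, 9.35% were called, 5.83% higher and 3.53% lower. Ifng, Tbx21 and Hlx reached 300 in 1 lineage only, so they passed the signal limit through the lineage in which they were bright. Setting the medians of the arrays equal moved the calls over all genes to 288 higher and 1129 lower among CD30high cells, against 547 and 397 as deposited, and to 302 higher and 559 lower among CD30low cells, against 458 and 277. With this scaling the median log2 ratio of all genes was -0.40 among CD30high and -0.21 among CD30low cells. The medians over all probe sets were 86.0 in CD30high and 73.1 in CD30low Th1 cells, and 64.3 in CD30high and 62.0 in CD30low Th17 cells. All lie under 100, so this scaling aligns the arrays on signals close to background.

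**Figure D1:**
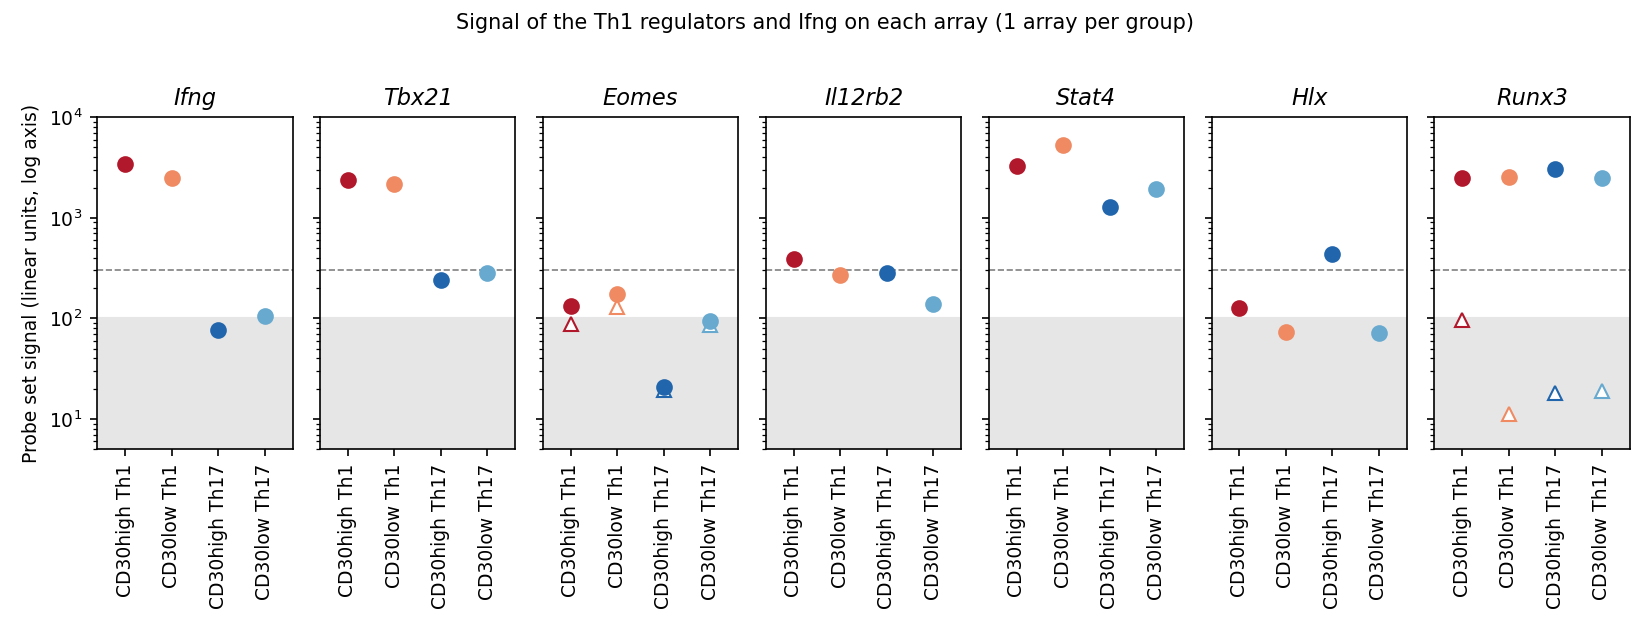
Probe set signal (y axis, linear signal units on a log axis) of each gene on the 4 arrays (x axis, 1 array per group). Filled circles are the brightest probe set and open triangles the other one; the grey band marks signals below 100 and the dashed line 300. Ifng is at 3423 and 2506 in the Th1 cells against 76.0 and 106 in the Th17 cells, and Hlx reaches 300 only in CD30high Th17 cells.

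Ifng (probe set 1425947_at) had signals of 3423 in CD30high and 2506 in CD30low Th1 cells, against 76.0 in CD30high and 106 in CD30low Th17 cells. It was at least 34.2-fold higher in Th1 than in Th17 cells among CD30high cells and 23.6-fold higher among CD30low cells. These ratios had rank 3 of 7979 genes and rank 4 of 7857 genes from the top, with dim signals set to 100. Tbx21 (probe set 1449361_at) had 2352 in CD30high and 2189.8 in CD30low Th1 cells, against 243 in CD30high and 281 in CD30low Th17 cells. Its ratios were 9.68-fold among CD30high and 7.78-fold among CD30low cells, with rank 29 and rank 35. In contrast to Ifng, whose transcript was at or near the floor in Th17 cells, Tbx21 stayed above 100 in both Th17 arrays. The log2 ratio of Th1 over Th17 cells was larger among CD30high than among CD30low cells by 0.54 for Ifng, where it rests on the floor, and by 0.31 for Tbx21, and neither difference was tested.

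Stat4 (probe set 1448713_at) was measured well above 300 on every array, with signals of 3274 in CD30high and 5234 in CD30low Th1 cells, against 1272 in CD30high and 1939 in CD30low Th17 cells. It was 2.57-fold higher in Th1 than in Th17 cells among CD30high cells and 2.70-fold higher among CD30low cells. With the medians of the arrays set equal, the ratio among CD30high cells fell under 2-fold (log2 ratio 0.95). Il12rb2 (probe set 1421623_at), the signalling chain that is restricted to IL-12-responsive cells, had 394 in CD30high and 269 in CD30low Th1 cells, against 281 in CD30high and 138 in CD30low Th17 cells. Its ratios of 1.40 and 1.94 were under the rule in both gates, and only 1 of its 4 signals reached 300.

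Runx3 was about as bright in Th17 as in Th1 cells. The signals of its brighter probe set (1440275_at) were 2465 in CD30high and 2527 in CD30low Th1 cells, against 3079.9 in CD30high and 2469 in CD30low Th17 cells, which gave log2 ratios of -0.32 among CD30high and 0.03 among CD30low cells. The other Runx3 probe set (1421467_at) stayed below 100 on every array, with 95.4, 11.1, 18.0 and 18.9 in CD30high Th1, CD30low Th1, CD30high Th17 and CD30low Th17 cells, and so gave no fold. Averaging the log2 ratios of both probe sets would turn Th1 over Th17 among CD30high cells to 1.04 through this dim probe set. Hlx (probe set 1418939_at), a homeobox gene, had 126 in CD30high and 73.0 in CD30low Th1 cells, against 439.6 in CD30high and 71.6 in CD30low Th17 cells. Its brightest array was thus CD30high Th17, where its level was 3.48-fold above that of CD30high Th1 cells (log2 ratio -1.80 for Th1 over Th17, rank 117 of 7979 from the bottom). Among CD30low cells both signals were below 100 and no fold is given.

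Eomes was dim throughout. Its brighter probe set (1435172_at) had 133 in CD30high and 176 in CD30low Th1 cells, against 20.9 in CD30high and 94.6 in CD30low Th17 cells. Its other probe set (1426001_at) had 87.1 in CD30high and 131 in CD30low Th1 cells, against 19.3 in CD30high and 86.2 in CD30low Th17 cells. No array reached 300, so Eomes could not be called. In both probe sets CD30low Th1 was the brightest array, and both Th17 arrays were below 100.

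Natural killer and CD8 T cells also express T-bet, Eomes and IFN-γ. Of the 7 markers listed for them, 6 were named in the annotation, and their signals summed to 7089 in CD30high and 9347 in CD30low Th1 cells, against 745 in CD30high and 1016 in CD30low Th17 cells. On every array 3 of the 6 reached 100, namely Klrd1, Klrk1 and Cd8b1. Klrd1, a receptor chain of natural killer cells and effector T cells, had 4360 in CD30high and 6199 in CD30low Th1 cells, against 173 in CD30high and 355 in CD30low Th17 cells. The CD8 chains differed, as Cd8b1 had 541 in CD30high and 703 in CD30low Th1 cells, against 349.9 in CD30high and 390.4 in CD30low Th17 cells, while Cd8a was between 32.2 and 92.7. Ncr1, a receptor of natural killer cells, was between 7.91 and 20.7, and Klra1 between 1.44 and 26.8. The part of such cells in the lineage values was not tested.

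**Figure D2:**
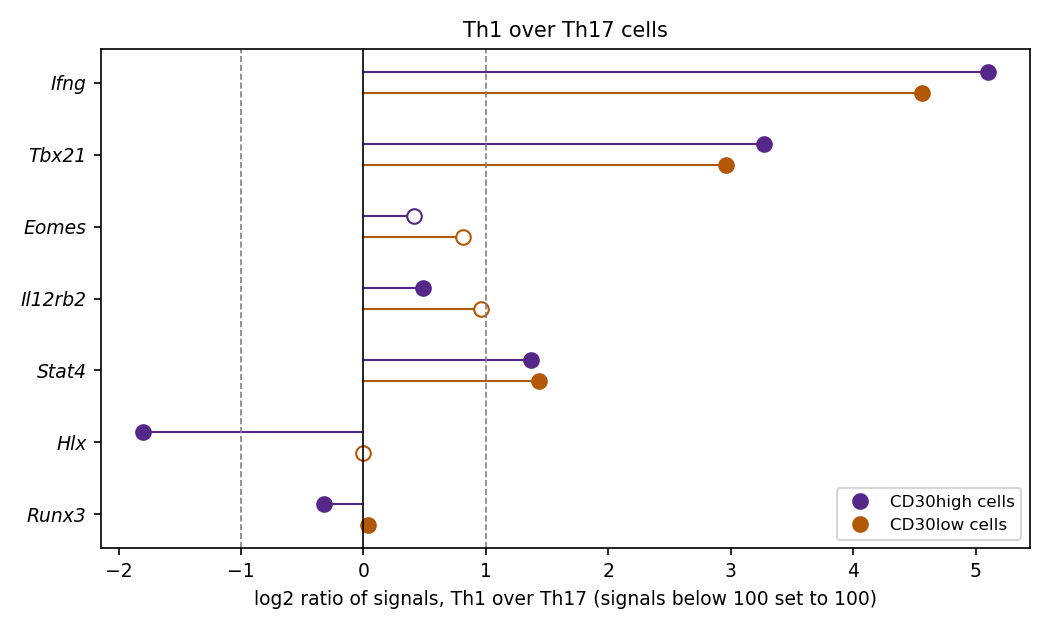
Log2 ratio of signals, Th1 over Th17 cells (x axis), for each gene (y axis) among CD30high and CD30low cells, 1 array per group. Filled points had at least 300 on the brighter array, open points did not, and dashed lines mark 2-fold; Ifng lies at 5.10 and 4.56, Tbx21 at 3.27 and 2.96, and Hlx at -1.80 among CD30high cells.

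The DNA just before the transcription starts was read for motifs of T-box, RUNX and STAT factors. All 7 genes had an entry in the RefSeq promoter table (GRCm38.p6), with 9 windows, since Runx3 and Stat4 have 2 starts each. The 250 bases before each start were searched on both strands for core motifs of 3 factor families. These were GGTGTGA for T-box factors, TGTGGT for RUNX factors and TTCNNNGAA for STAT factors. No homeobox motif, the family of Hlx, was searched. The windows of Ifng, Tbx21 and Hlx are printed because these genes had the largest differences between arrays, and that of Il12rb2 because it held the other STAT motif. They run 5′ to 3′ along the strand of the gene, and capitals mark a motif match.
Ifng, chr10:118440796-118441045 (+ strand): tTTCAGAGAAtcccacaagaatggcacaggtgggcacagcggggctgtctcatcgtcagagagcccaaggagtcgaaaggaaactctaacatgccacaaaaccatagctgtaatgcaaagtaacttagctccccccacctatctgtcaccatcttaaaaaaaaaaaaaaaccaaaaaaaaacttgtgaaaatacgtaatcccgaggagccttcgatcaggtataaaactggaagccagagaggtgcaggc
Tbx21, chr11:97115332-97115581 (- strand): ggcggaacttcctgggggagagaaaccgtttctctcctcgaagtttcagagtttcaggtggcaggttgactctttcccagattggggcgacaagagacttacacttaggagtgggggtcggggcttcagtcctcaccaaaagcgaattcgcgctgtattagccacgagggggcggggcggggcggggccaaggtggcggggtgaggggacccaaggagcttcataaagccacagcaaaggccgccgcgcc
Hlx, chr1:184732494-184732743 (- strand): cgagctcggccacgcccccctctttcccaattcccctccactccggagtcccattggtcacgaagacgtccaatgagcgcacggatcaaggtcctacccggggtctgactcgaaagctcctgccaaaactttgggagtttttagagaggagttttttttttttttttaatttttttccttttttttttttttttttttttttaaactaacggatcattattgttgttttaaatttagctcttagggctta
Il12rb2, chr6:67376189-67376438 (- strand): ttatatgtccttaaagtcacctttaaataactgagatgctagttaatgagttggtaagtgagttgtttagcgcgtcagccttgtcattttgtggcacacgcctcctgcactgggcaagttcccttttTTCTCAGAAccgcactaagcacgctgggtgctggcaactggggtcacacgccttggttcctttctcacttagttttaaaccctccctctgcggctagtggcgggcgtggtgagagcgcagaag
The STAT motif was matched 1 time each in Ifng, as TTCAGAGAA from 249 to 241 bases before the start, and in Il12rb2, as TTCTCAGAA from 123 to 115 bases before the start. Of 32851 windows of this length, 7.02% held this motif. Runx3 held 2 RUNX matches in the window of its upstream start, from 134 to 129 and from 126 to 121 bases before it, and 14.0% of all windows held at least 1. The T-box motif, present in 3.33% of all windows, was in none of the 9 windows. No match overlapped a match of another motif. These are letter matches within a short window and were not measured as binding sites.

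To ask whether the Th1 program differed with CD30, CD30high cells were then compared with CD30low cells of the same lineage. In Th1 cells 0 of the 7 members were called, 5 of them having reached 300. Of the 7813 genes that reached 300 on either Th1 array, 1.28% were called, 0.794% higher and 0.486% lower. In Th17 cells Hlx was called higher and none lower, 3 of the 7 having reached 300. Of the 7786 genes that reached 300 on either Th17 array, 7.6% were called, 3.94% higher and 3.66% lower. Setting the medians of the arrays equal changed the calls over all genes in Th1 cells to 25 higher and 118 lower, against 62 and 38 as deposited, with a median log2 ratio of all genes of -0.23. It left 0 members called in Th1 cells and Hlx alone in Th17 cells.

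Hlx showed the largest difference of the 7 genes with CD30. In Th17 cells its signals were 439.6 in CD30high and 71.6 in CD30low cells, at least 4.4-fold higher in CD30high cells, which had rank 54 of 7786 genes from the top. In Th1 cells the signals of 126 in CD30high and 73.0 in CD30low cells differed by at least 1.26-fold and stayed under 300. Both folds are lower bounds over CD30low signals below 100, so the size of the difference between the lineages is not given. Only 1 probe set measured Hlx, and both of its calls, with CD30 and between the lineages, rest on the array of CD30high Th17 cells. In the same Th17 arrays Il17a had 14443 in CD30high and 1398 in CD30low cells. The neutrophil genes S100a8 (1209.9 in CD30high and 5192 in CD30low cells) and S100a9 (527 in CD30high and 2017 in CD30low cells) made up most of the sum of the 6 myeloid markers listed. Of the others, Lyz2 had 88.5 in CD30high and 231 in CD30low cells. Cd14 (104 and 26.9) and Csf1r (130.1 and 30.3) were just above 100 in CD30high cells and below it in CD30low cells. Itgam (40.7 and 9.10) was below 100 in both and has no order. The 6 myeloid markers summed to 2101 in CD30high and 7507 in CD30low Th17 cells, and 4 of them reached 100 in CD30high and 3 in CD30low cells. Their part in the Hlx value was not tested.

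Stat4 had log2 ratios of CD30high over CD30low cells below 0 in both lineages. It had 3274 in CD30high and 5234 in CD30low Th1 cells (log2 ratio -0.68), and 1272 in CD30high and 1939 in CD30low Th17 cells (log2 ratio -0.61). Neither ratio reached 2-fold, and both passed a limit of 1.5-fold. They had rank 171 of 7813 genes in Th1 cells and rank 649 of 7786 genes in Th17 cells from the bottom. Whether separate cultures would differ as much cannot be judged from 1 array per group. The 7 T cell markers summed to 68879 in CD30high and 83574 in CD30low Th1 cells and to 49145 in CD30high and 58838 in CD30low Th17 cells. Against the direction of the sums, Cd28 had 16523 in CD30high and 16377 in CD30low Th1 cells, and 15882 in CD30high and 9674 in CD30low Th17 cells. Cd4 also went against it in Th1 cells, with 773 in CD30high and 731 in CD30low cells. The part of T cell content in the Stat4 ratios was not tested.

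Il12rb2 had its highest signals in the CD30high cells of each lineage. In Th1 cells it had 394 in CD30high and 269 in CD30low cells (log2 ratio 0.55). In Th17 cells it had 281 in CD30high and 138 in CD30low cells (log2 ratio 1.02), which is past 2-fold but under the signal limit, and it passed with a signal limit of 200. That log2 ratio was 0.97 with the medians set equal and 0.49 with a floor of 200. The gene of the partner chain, Il12rb1, which IL-12 and IL-23 receptors share, had 685 in CD30high and 433 in CD30low Th1 cells. In Th17 cells it had 657 in CD30high and 223 in CD30low cells and was called higher (2.94-fold).

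Ifng and Tbx21 were not past the rule with CD30 in either lineage. In Th1 cells Ifng had 3423 in CD30high and 2506 in CD30low cells (log2 ratio 0.45), and in Th17 cells 76.0 and 106, both near the floor. Tbx21 had 2352 in CD30high and 2189.8 in CD30low Th1 cells (log2 ratio 0.10, and -0.13 with the medians set equal) and 243 in CD30high and 281 in CD30low Th17 cells (log2 ratio -0.21). Runx3 had log2 ratios of -0.04 in Th1 and 0.32 in Th17 cells. Eomes had 133 in CD30high and 176 in CD30low Th1 cells. In Th17 cells its signals of 20.9 in CD30high and 94.6 in CD30low cells were both below 100.

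**Figure D3:**
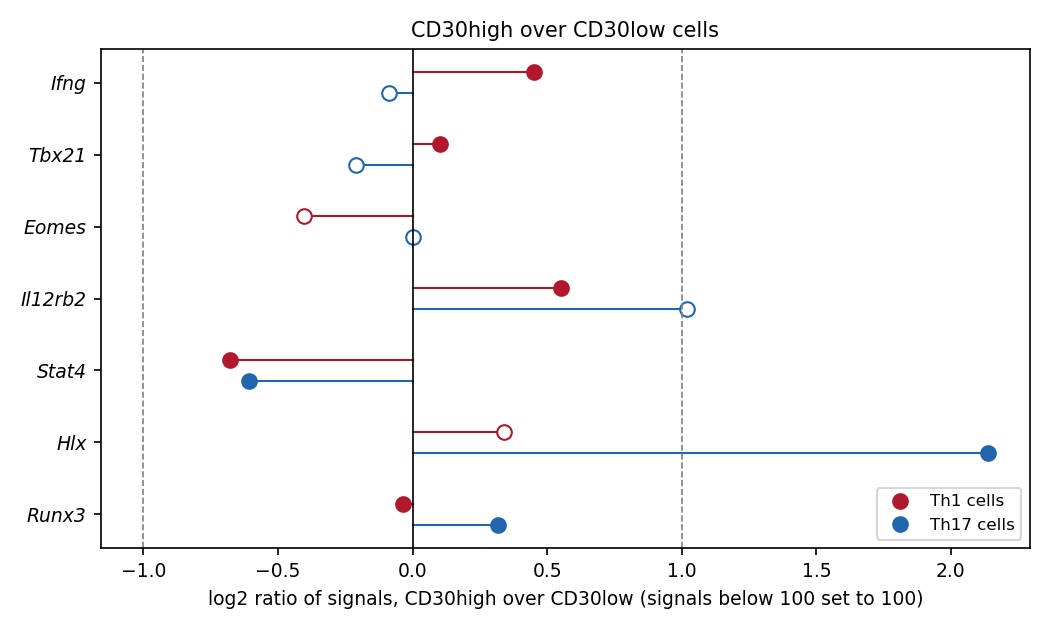
Log2 ratio of signals, CD30high over CD30low cells (x axis), for each gene (y axis), with 1 color for Th1 and 1 for Th17 cells and 1 array per group. Filled points had at least 300 on the brighter array, open points did not, and dashed lines mark 2-fold; Hlx in Th17 cells lies at 2.14, the other filled points stay inside the lines, and Stat4 lies at -0.68 and -0.61.

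The genes with the most similar course over the 4 arrays were sought for the 6 members that reached 300 on any array. Signals under the floor of 100 were raised to 100 here too, and each log2 profile was centred on its mean. Likeness was the largest absolute difference between 2 profiles over the 4 arrays, among 8221 genes. With 4 arrays such likeness describes these arrays only. Stat4 was closest to Gimap6 (largest log2 difference 0.04), Pdcd4 (0.10) and Hcst (0.11). Gimap6 had 6986 in CD30high and 10711 in CD30low Th1 cells and 2662 in CD30high and 4210.1 in CD30low Th17 cells. Hlx was closest to Mocos (0.11), Ptprj (0.12) and Sval1 (0.16). Ptprj had 208 and 159 in CD30high and CD30low Th1 cells and 789 and 188 in CD30high and CD30low Th17 cells. The CD30low signals were below 100 for Hlx (73.0 in Th1 and 71.6 in Th17 cells) and for Sval1 (19.6 and 51.6). Likeness to Hlx therefore rests in part on the floor, which hides differences between such signals. Il12rb2 was closest to Rpusd1 (0.07), F2rl2 (0.08) and Dcxr (0.10), and Tbx21 to Gm5547 (0.21), Ffar2 (0.25) and Entpd1 (0.29). Runx3, which varied little, was closest to Heatr1 (0.0035), D17H6S56E-5 (0.014) and Wdr3 (0.028). Ifng had no close match, the nearest being Etv5 (0.46), Ctla2b (0.61) and the Y-linked Eif2s3y (0.65). In CD30high and CD30low Th17 cells Etv5 had 79.4 and 59.4 and Eif2s3y 9.39 and 1.41, all below 100. Ifng was below 100 in CD30high Th17 cells (76.0). These differences from Ifng therefore rest in part on the floor, as does that of Ffar2 from Tbx21 (67.2 in CD30low Th17 cells).

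The other genes of the pathway were described from a list of 46, of which 42 were named in the annotation and 34 reached 300 on any array. The list was drawn up with earlier results of these data known, so its counts are descriptive and do not test the pathway. In Th1 over Th17 cells, 12 were called higher and 7 lower of 34 that reached 300 among CD30high cells. Of all genes that reached 300 there, 11.8% were called. Among CD30low cells 8 were called higher and 6 lower of 33, where 9.35% of all genes that reached 300 were called. The median log2 ratio of the pathway genes was 0.19 among CD30high and 0.23 among CD30low cells, over 38 measured genes each. Over all genes measured it was 0.01 and 0.02. Some of the called genes, Hopx, Ccl5, Fasl, Ifngr2 and Zeb2 among them, reached 300 in 1 lineage only. They passed the signal limit through the lineage in which they were bright.

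Among receptors and kinases, the IL-18 receptor genes were far brighter in Th1 cells. Il18r1 had 24026 in CD30high and 26465 in CD30low Th1 cells, against 3032 in CD30high and 5425 in CD30low Th17 cells. Il18rap, its accessory chain, was 12.8-fold higher in Th1 than in Th17 cells among CD30high and 7.18-fold higher among CD30low cells, and its other probe set gave ratios of 14.5 and 6.15. The chains of the IFN-γ receptor went opposite ways. Ifngr1, the ligand-binding chain, was higher in Th1 than in Th17 cells (4.44-fold among CD30high and 2.73-fold among CD30low cells). Ifngr2, the signalling chain, had 94.7 in CD30high and 109.7 in CD30low Th1 cells, against 636 in CD30high and 855 in CD30low Th17 cells, at least 6.36-fold lower in Th1 cells among CD30high and 7.79-fold lower among CD30low cells. Its other probe set had 100.1 and 41.3 in CD30high and CD30low Th1 cells against 192 and 179 in CD30high and CD30low Th17 cells. Jak2, a kinase bound to both the IL-12 and the IFN-γ receptor, was lower in Th1 than in Th17 cells (2.07-fold among CD30high and 2.64-fold among CD30low cells). Its call among CD30high cells was lost with quantile normalization and with the mean of all probe sets, and another probe set gave Th1 over Th17 ratios of 0.54 among CD30high and 0.41 among CD30low cells. Tyk2, the other kinase of the IL-12 receptor, was under the rule, with ratios of 1.04 and 1.18.

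Among transcription and signalling factors, the homeodomain gene Hopx was higher in Th1 than in Th17 cells (6.54-fold among CD30high and 10.1-fold among CD30low cells), and so was Prdm1, which encodes the repressor Blimp-1 (2.85-fold and 3.03-fold). Irf1, a target of IFN-γ signalling, was called higher in Th1 cells among CD30high cells only (2.22-fold, and 1.62-fold among CD30low cells). Txk, a Tec family kinase of T cells (3.67-fold), and Gata3, the master factor of Th2 cells (2.29-fold), were likewise called higher, and Zeb2, a transcription factor gene of terminal effector T cells, lower (at least 5.11-fold), among CD30high cells only. The calls of Irf1 and Gata3 were lost with the medians set equal, and that of Gata3 also with a signal limit of 500. Whether these ratios differed between the gates was not tested. Of the products of effector cells, Fasl, the ligand of the death receptor Fas, was at least 8.38-fold higher in Th1 cells among CD30high and 13.7-fold higher among CD30low cells. The chemokine gene Ccl5 (at least 4.79-fold and at least 11.6-fold) and the chemokine receptor gene Cxcr3 (3.31-fold and 6.39-fold) were also higher in both gates. Gzmb, the gene of granzyme B, had 43328 in CD30high and 49398 in CD30low Th1 cells, against 5155 in CD30high and 28882 in CD30low Th17 cells, and was called among CD30high cells only (8.4-fold). The TNF family cytokines Tnf (2.39-fold among CD30high and 7.64-fold among CD30low cells) and Lta (4.6-fold and 3.74-fold) were lower in Th1 than in Th17 cells. So were the inhibitors of cytokine signalling Socs1 (3.69-fold and 4.51-fold) and Socs3 (2.19-fold and 2.53-fold).

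With CD30, 1 of the 31 pathway genes that reached 300 in Th1 cells was called higher and 3 lower in CD30high cells. Of all genes that reached 300 there, 1.28% were called. The pathway median log2 ratio was -0.16 over 37 measured genes, against 0.00 over all genes measured. Tnf was higher (2.71-fold), with 328 in CD30high and 121 in CD30low cells. That call was lost with the medians set equal, with a floor of 200 and with a signal limit of 500. Txk (2.69-fold), Ccl5, with 479 in CD30high and 1162 in CD30low cells (2.43-fold), and Gata3 (2.43-fold) were lower. In Th17 cells 3 of 31 were called higher and 5 lower in CD30high cells, where 7.6% of all genes that reached 300 were called. The pathway median log2 ratio was -0.26 over 38 measured genes, against 0.02 over all genes measured. Il12rb1, Lta (2.43-fold) and Zeb2 (at least 5.11-fold), with 511 in CD30high and 59.0 in CD30low cells, were higher. Zeb2 was called from 1 of its 5 probe sets, and its calls with CD30 and between the lineages were lost with the mean of all probe sets. Txk (9.12-fold), Gata3 (6.3-fold), Gzmb (5.6-fold), Il18rap (2.43-fold) and Socs3 (2.06-fold) were lower. The Socs3 call was lost with the mean of all probe sets and without probe sets that can match several transcripts. Txk and Gata3 were thus lower in the CD30high cells of both lineages, with 508 in CD30high and 1368 in CD30low Th1 cells and 139 in CD30high and 1263 in CD30low Th17 cells for Txk. Gata3 had 484 in CD30high and 1176 in CD30low Th1 cells, and 211 in CD30high and 1333 in CD30low Th17 cells.

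**Figure D4:**
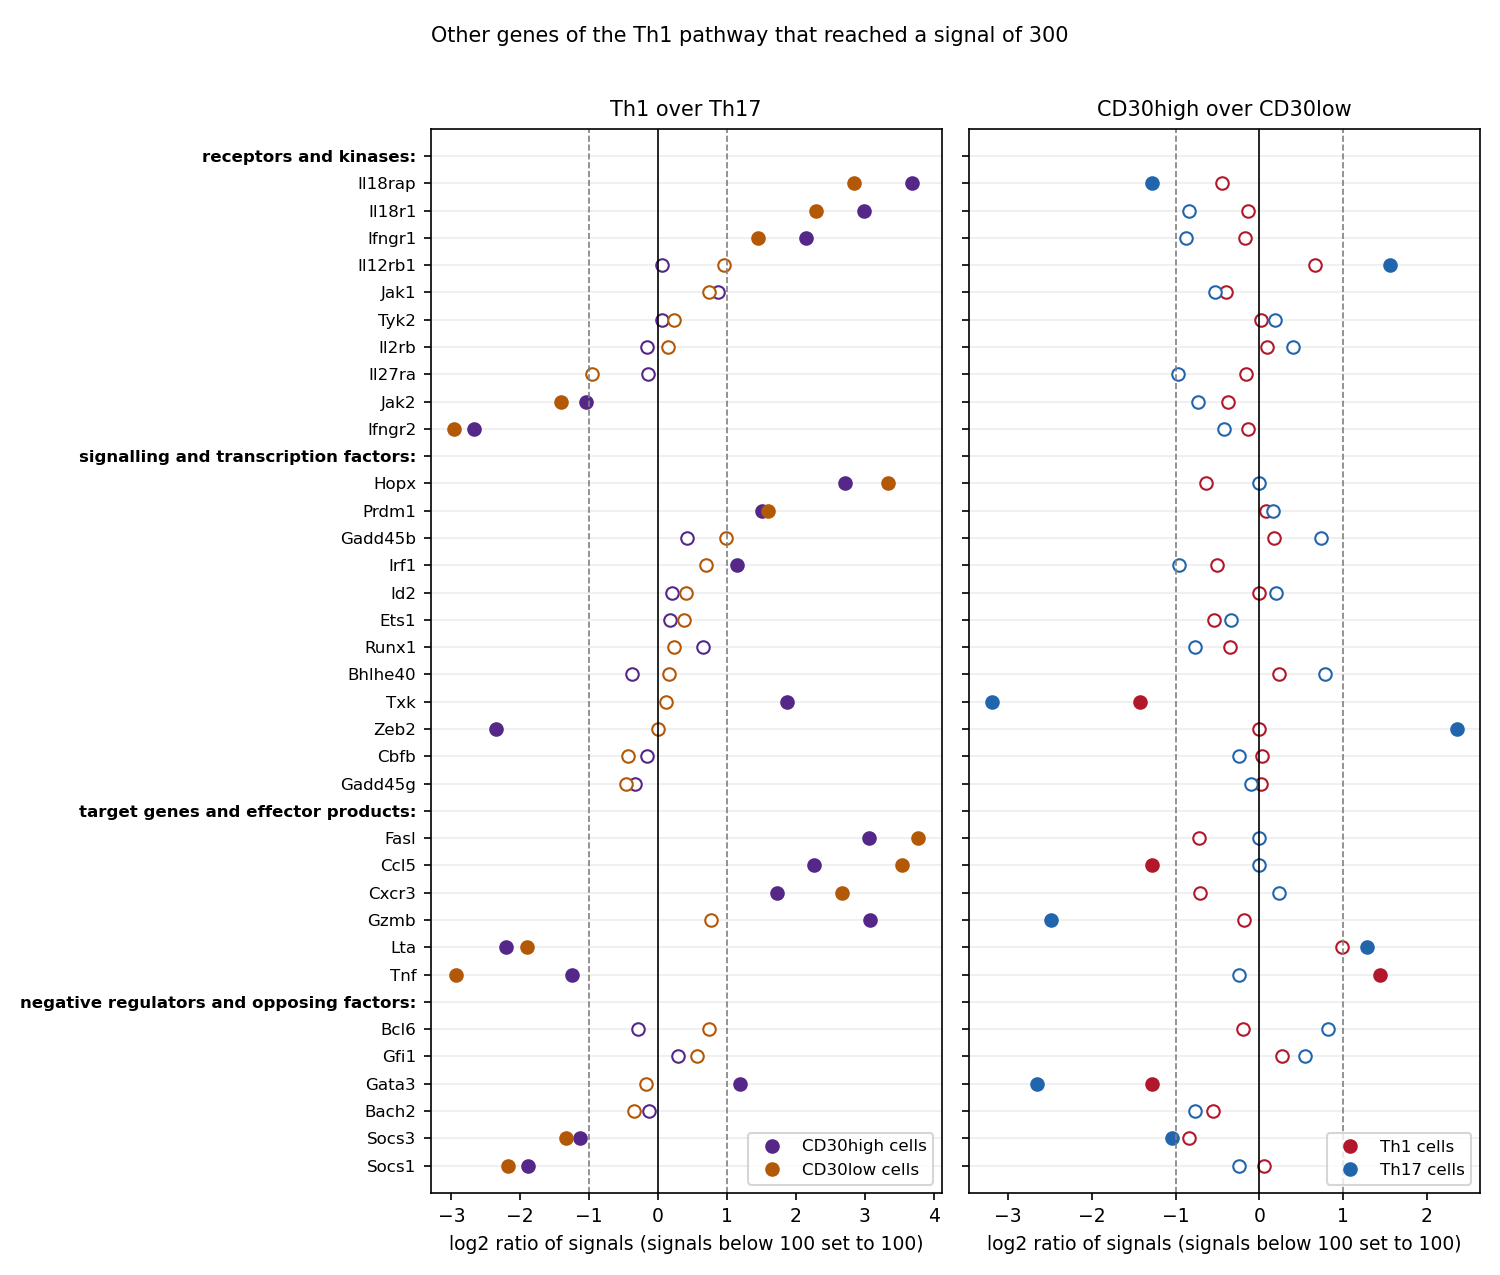
Log2 ratios (x axes) of the 34 pathway genes that reached 300 on any array, ordered by role (y axis), for Th1 over Th17 cells in the left panel and CD30high over CD30low cells in the right panel, 1 array per group. Filled points passed the fold rule, open points did not, and dashed lines mark 2-fold; Il18rap lies at 3.68 and 2.84 and Ifngr2 at -2.67 and -2.96 in the left panel, and Txk at -1.43 and -3.19 in the right panel.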

How the data were processed

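RNA of 4 sorted populations was labelled by in vitro transcription and hybridised to Affymetrix GeneChip mouse genome arrays, 1 array per group. The authors deposited 1 intensity value per probe set and array on a linear scale, made with the GeneChip Operating Software by the methods and Affymetrix Expression Console by the submitters' processing notes. The summary algorithm, scaling target and detection calls are not given in the sources used here. Each array had a 2%-trimmed mean of 496 to 497, as after scaling to a shared target, which would hide a shift of most genes in 1 direction. Probe sets in the table numbered 45037. Of these, 34945 had a single symbol in the platform annotation, updated through gene identifiers for 34741, while 932 had several symbols and 9160 were unnamed here and not used.

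The floor of 100, the limits of 2-fold and 300 and the brightest probe set were used throughout. Ranks, percentages called and list counts use these settings. The 7 genes, and the lists of pathway and marker genes, were chosen with earlier results of these data known. Named were all 7 genes, the pathway genes past the rule and 3 genes of similar profile per gene. An additive fit of lineage and gate was not run, since its residual would be the difference of the gate effect between lineages. The fold rule was run on simulated data with known folds. This checks the rule as coded, not the calls on these arrays. Promoter sequences came from RefSeq (GRCm38.p6). Alternatives were other scalings, floors, fold and signal limits and other choices of probe set. Scripts ran in Python 3.11.15 with pandas 2.3.3, numpy 2.4.6 and matplotlib 3.10.9. The number of arrays limits the precision.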

Additional observations from a re-analysis of the deposited data

Results flagged for a closer look

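Among the 7 genes and the pathway genes with a call in any comparison, the following had log2 ratios of opposite sign in the 2 lineages or the 2 gates, and none of these differences was tested. The log2 ratio of CD30high over CD30low in Th17 minus that in Th1 cells was -1.68 for Tnf (-0.24 in Th17 and 1.44 in Th1 cells), 0.95 for Cxcr3 (0.24 and -0.71), -0.29 for Socs1 (-0.24 and 0.05), -0.54 for Ifng (-0.09 and 0.45), -0.31 for Tbx21 (-0.21 and 0.10) and 0.35 for Runx3 (0.32 and -0.04). The log2 ratio of Th1 over Th17 cells among CD30high minus that among CD30low cells was -0.35 for Runx3 (-0.32 and 0.03) and 1.38 for Gata3 (1.20 and -0.18). Of these ratios, that of Tnf in Th1 cells and that of Gata3 among CD30high cells were past the fold rule. The Ifng ratio in Th17 cells sets a signal of 76.0, raised to 100, against 106, so its size and the difference rest on the floor. Among the 7 genes, the opposite signs of Tbx21 and Runx3 depended on the scaling. The log2 ratios of the pathway genes under other scalings are not given here. With the medians set equal, Tbx21 had -0.26 in Th17 and -0.13 in Th1 cells, and Runx3 had -0.74 among CD30high and -0.20 among CD30low cells for Th1 over Th17. With quantile normalization Runx3 had 0.31 in Th17 and 0.0035 in Th1 cells for CD30high over CD30low. The signs stayed opposite for Tbx21 with quantile normalization (-0.16 in Th17 and 0.14 in Th1 cells). They also did for Runx3 with CD30 when the medians were set equal (0.27 in Th17 and -0.27 in Th1 cells).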

How the results depend on the processing

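The calls of Ifng and Tbx21 for Th1 over Th17 cells held in both gates under all 10 alternatives. Both genes have 1 probe set, so the other choices of probe set could not change their calls. The calls of Stat4 were lost with a 3-fold limit in both gates and with the medians set equal among CD30high cells. Both calls of Hlx were lost with a signal limit of 500. With a limit of 1.5-fold, 1 of the 7 genes was called with CD30 in Th1 and 2 in Th17 cells, Stat4 being the added gene, and 10 and 18 pathway genes. With a limit of 3-fold, 0 pathway genes were called in Th1 and 4 in Th17 cells. With a signal limit of 200, 2 of the 7 genes were called in Th17 cells, and with a signal limit of 500, 0 were. With the mean of the probe sets, 1 of the 7 genes was called in Th1 cells, Runx3, through a probe set below 100 on every array, which also added Runx3 for Th1 over Th17 among CD30high cells. Over all genes, 100, 592, 944 and 735 were called for CD30 in Th1, CD30 in Th17, lineage in CD30high and lineage in CD30low cells. These became 595, 1451, 2269 and 1964 at 1.5-fold and 16, 255, 415 and 284 at 3-fold. With a signal limit of 200, 171 were called for CD30 in Th1 cells, and with the medians set equal 1417 for lineage in CD30high cells. Of 80 counts recomputed, 71 stayed within 1.5 times the main count. Of 168 log2 ratios recomputed for the 7 genes, 134 moved by less than the spread between probe sets, and 34 by more. No called ratio changed sign. No paired analysis was possible because each group had 1 array and the labels carry no replicate number. Signals below 100 have no order, so Eomes in Th17 cells, Hlx in CD30low cells and Ifng in CD30high Th17 cells have bounds or no ratio.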
